A study of Homo sapiens with 7 samples.

Results

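Clustered protocadherins are cell-adhesion proteins whose genes lie head to tail in 3 groups, alpha, beta and gamma, on human chromosome 5. The members were all genes whose single platform symbol begins with PCDHA, PCDHB, PCDHGA, PCDHGB or PCDHGC followed by a number, or with PCDHAC, so no measured value chose them. This gave 43 of the 18646 genes on the arrays, 7 in the alpha cluster, 19 in the beta cluster and 17 in the gamma cluster, read by 49 probes. RefSeq lists 59 such genes, 16, 19 and 24 by cluster, so all beta genes but only some alpha and gamma genes were measured. Pseudogenes account for 4 of the members (PCDHB17P, PCDHB18P, PCDHB19P and PCDHGB8P). A set of 5 are C-type genes, the last ones of the alpha and gamma clusters (PCDHAC1, PCDHAC2, PCDHGC3, PCDHGC4 and PCDHGC5).

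The arrays compared RNA of colorectal cancer cell lines carrying a short hairpin RNA (shRNA) with control RNA from that same cell line after a non-silencing control treatment. DLD1, HT29 and RKO cells carried an shRNA against DNMT1, the enzyme that copies DNA methylation onto newly made strands, with 1 array for shRNA 49 and 1 for shRNA 51 in each line, 6 arrays in all. HCT116 cells carried an shRNA against UHRF1, which brings DNMT1 to newly copied DNA, on 1 array, and the labels give that knockdown an efficiency of 60% and a title with d14. The RNA of the knockdown carried the dye Cy3 with shRNA 49, and Cy5 with shRNA 51 and on the UHRF1 array, so shRNA and dye orientation cannot be told apart. Values are log2 ratios of knockdown over control, 1 being a doubling. A pair of values for a line is given with shRNA 49 first and shRNA 51 second. Separate cultures are not mentioned in the labels, nor is it stated whether both arrays of a line used the same control RNA. The spread behind each p-value is thus that among these arrays and may be technical.

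DNMT1 lay below control on all 6 DNMT1 arrays, with pairs of -1.97 and -2.17 (DLD1), -2.07 and -0.92 (HT29), and -3.27 and -2.35 (RKO). The direction of the ratios, which the labels leave unstated, was read from these values and is likely, not settled. On the UHRF1 array the 4 UHRF1 probes disagreed, at -3.10, -2.06, -0.18 and 0.68, so the direction there is less certain. Ratios spread more widely with shRNA 51 than with shRNA 49 (interquartile ranges of 0.778 to 0.968 against 0.558 to 0.726), and more probes had no ratio (2610 to 5075 against 205 to 352 of 41000). Numerous probes carry a ratio identical to that of other probes on their array, and the sources used here give no reason. Such shared ratios made up 34.0% to 44.0% of all ratios on the 7 arrays, and 45.2% to 85.4% of those of the member probes. A member is called shared on an array where at least 1 of its probes held such a ratio there, and is said to have its own ratio otherwise. In bulk RNA, a change in every cell and a larger change in few cells cannot be told apart. Ratios carry no levels, so whether the lines express colorectal epithelial markers could not be checked.

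In neurons each cell uses its own mixture of clustered protocadherins, which gives it a surface identity. Every alternate gene has its own promoter in front of its own first exon. Alpha and gamma transcripts are spliced onto constant exons that all genes of the cluster share, and beta genes stand without such exons. DNA methylation keeps unused promoters silent, and CTCF with cohesin binds the promoters that are in use and loops them to distant enhancers. In colorectal and other cancers, long stretches of these clusters are known to carry dense DNA methylation.

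Promoters of this family are known for a short conserved element with the core CGCT, and the stretch around this core is shown for 10 members whose values are described in the following paragraphs. Each runs 5′ to 3′ on the gene's strand, which is the plus strand for all of them, with the core in capitals and 20 bases before and 12 after it (RefSeq, GRCh38.p14).
PCDHA1: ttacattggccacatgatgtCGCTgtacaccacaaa
PCDHA8: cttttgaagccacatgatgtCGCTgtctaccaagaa
PCDHB1: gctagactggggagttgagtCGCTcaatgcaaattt
PCDHB2: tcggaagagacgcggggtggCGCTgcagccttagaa
PCDHB5: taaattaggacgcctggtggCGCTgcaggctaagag
PCDHB15: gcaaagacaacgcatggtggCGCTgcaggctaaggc
PCDHGA3: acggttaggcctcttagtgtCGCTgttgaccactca
PCDHGB1: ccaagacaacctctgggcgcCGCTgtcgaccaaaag
PCDHGB2: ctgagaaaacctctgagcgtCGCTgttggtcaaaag
PCDHGB4: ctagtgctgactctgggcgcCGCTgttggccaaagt
They lie at chr5:140786082-140786117 (PCDHA1), chr5:140841126-140841161 (PCDHA8), chr5:141051270-141051305 (PCDHB1), chr5:141094540-141094575 (PCDHB2) and chr5:141135175-141135210 (PCDHB5). The others lie at chr5:141245310-141245345 (PCDHB15), chr5:141343763-141343798 (PCDHGA3), chr5:141350021-141350056 (PCDHGB1), chr5:141359917-141359952 (PCDHGB2) and chr5:141387613-141387648 (PCDHGB4). The 3 beta genes PCDHB2, PCDHB5 and PCDHB15 all read TGGCGCT around the core, and PCDHB1 does not.

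RefSeq promoters, 300 bases from 250 before to 50 after the annotated start, were found for 35 of the 43 members, and 34 of these hold CGCT on the gene's strand, against 54.3% of all promoters (70.0% on either strand). The core with its 3 preceding bases differed between the clusters. TGTCGCT stood in 4 of 7 alpha promoters, TGGCGCT in 13 of 14 beta promoters and CGCCGCT in 6 of 14 gamma promoters. On either strand these forms occur in 1.76%, 4.08% and 9.45% of all promoters, and every match overlaps a match of CGCT. In the 26 members with 1 of the forms the core lay at a median of -58 bases from the annotated start, and the plot of the place of the core shows the distances by cluster. Promoters of members held a median of 7 CpG sites, the bases DNMT1 acts on, against 14 over all 35116 promoters in the table. A match is a string of letters and says nothing of binding in these cells.

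**Figure D1:**
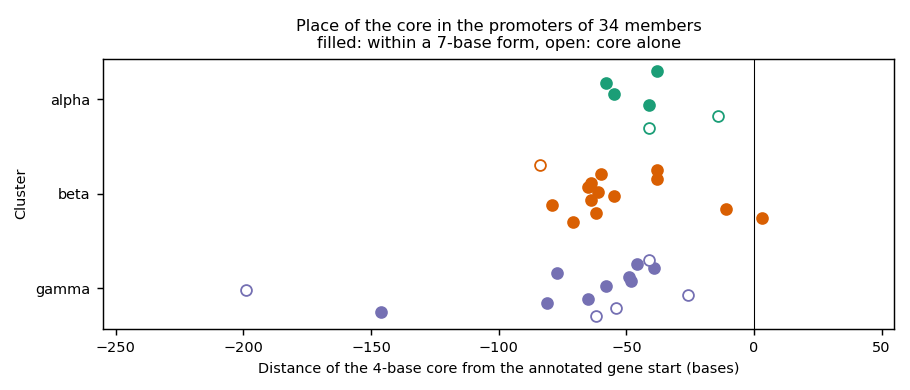
Distance of the CGCT core from the annotated start (x axis, bases, negative before the start) for 34 members with a core, 1 point each, by cluster; filled points stand within a 7-base form and open points are the core alone. Filled points have a median of -48 in the alpha, -61 in the beta and -58 in the gamma cluster.

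Over all DNMT1 arrays 1 of the 36 members that could be tested rose, PCDHB5, and 0 fell (limma, mean over the lines against 0, adjusted p below 0.05). In the same test 0.380% of all 17623 genes rose and 0.0170% fell, and at an unadjusted p below 0.05 stood 5 members (13.9%) against 11.4% of all genes. The mean ratio was above 0 for 26 of the 36 (72.2%), against 55.2% of all genes, and at least 2-fold for 7 (19.4%), against 3.88%. The median of the means was 0.70 in the alpha cluster (5 tested), 0.35 in the beta cluster (15) and 0.16 in the gamma cluster (16), beside 0.03 over all genes. A test needed a value on at least 5 of the 6 arrays, and PCDHA9, PCDHAC1, PCDHB3, PCDHB6, PCDHB17P, PCDHB19P and PCDHGC3 did not have it. Means of members are fitted with both shRNAs given equal weight. Where n = 5 they can thus differ from the plain average of the values listed. The medians depended on the DLD1 array with shRNA 51, without which they were 0.42, 0.18 and 0.01. Without the RKO array with shRNA 51 the gamma median was -0.02. The plot of means over the DNMT1 arrays shows every tested member with its interval.

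**Figure D2:**
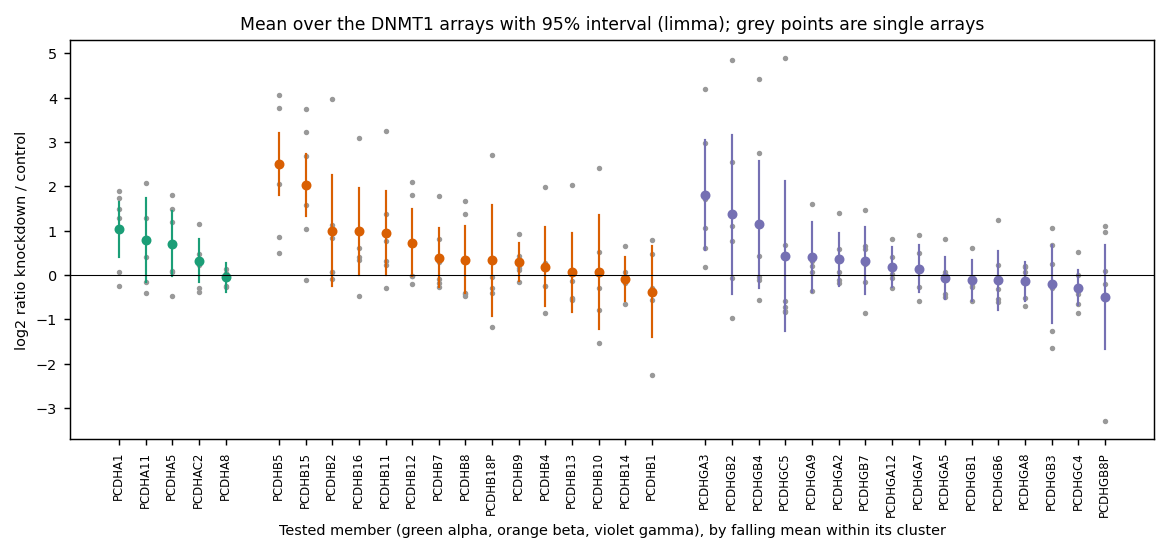
Mean log2 ratio of knockdown over control for the 36 tested members (coloured points, by cluster and falling mean) with 95% intervals from limma, and single DNMT1 arrays as grey points. PCDHB5 has the highest mean (2.51), and for most members the interval includes 0.

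On single arrays the share of members past 2-fold was widest apart from that of all genes in DLD1 with shRNA 51. There 20 of 37 members with a ratio stood at least 2-fold above control (54.1%), against 13.2% of all genes, and 2 stood at least 2-fold below, against 4.55%. DLD1 with shRNA 49 had 6 of 43 above (2.93% of all genes) and 1 below (2.04%). In HT29 the counts above were 1 of 42 with shRNA 49 (3.63%) and 8 of 29 with shRNA 51 (11.5%), with 1 below on each (3.63% and 4.68%). In RKO they were 8 of 43 with shRNA 49 (5.32%) and 8 of 36 with shRNA 51 (13.3%), with 0 and 3 below (2.47% and 8.73%). The plot of shares past 2-fold sets members beside all genes on each array.

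**Figure D3:**
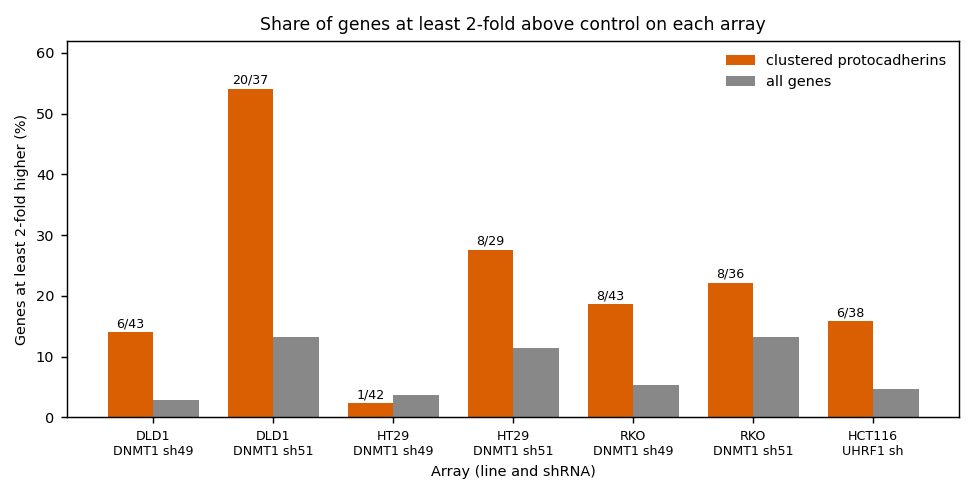
Share of genes with a ratio that stood at least 2-fold above control (y axis, percent) on each array, for clustered protocadherins (orange, with the counts) and for all genes (grey). The highest member share is 54.1% in DLD1 with shRNA 51, and in HT29 with shRNA 49 the members' share, 2.38%, is below that of all genes, 3.63%.

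The shared ratios bear on these counts, so they were also taken over members with their own ratio. In DLD1 14 of 16 such members stood at least 2-fold above control with shRNA 51 (12.0% of all genes with their own ratio) and 3 of 11 with shRNA 49 (3.58%). HT29 had 0 of 12 (4.94%) and 3 of 7 (8.95%), in order of shRNA number, and RKO 6 of 20 (6.70%) and 4 of 17 (11.6%). PCDHA8 (0.02) and PCDHGA7 (0.91) were the members with their own ratio that stayed under 2-fold in DLD1 with shRNA 51. The value of PCDHGA7 is the mean of probes that disagreed there, at 1.93 and -0.12. Members held their own ratio on some arrays and not on others. In DLD1, 3 beta members had one with shRNA 49 and 8 with shRNA 51, and all 8 stood past 2-fold. A count over own ratios can thus take in members through the array where they are high, and is no independent check. All counts on single arrays are of 1 array each and carry no test.

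**Figure D4:**
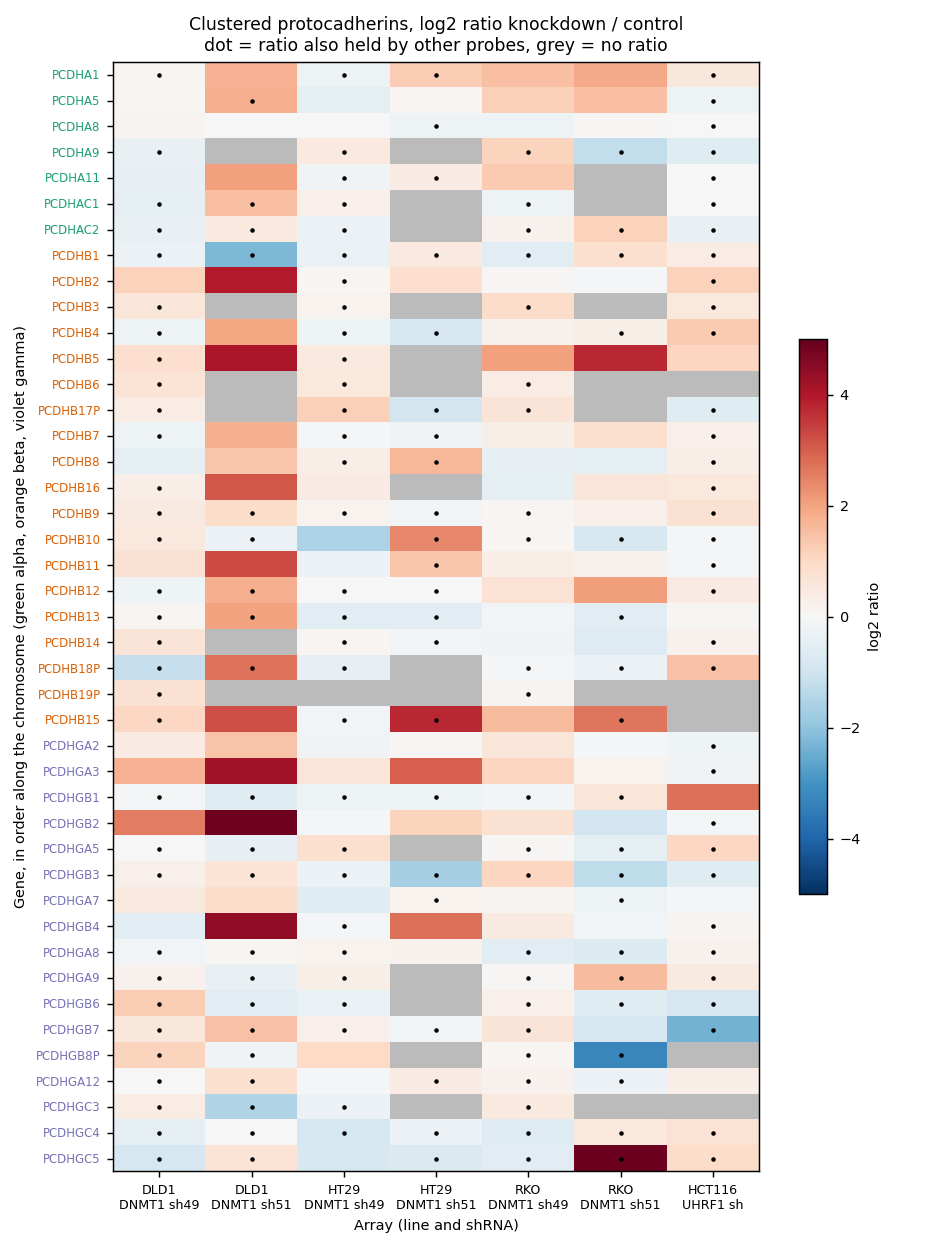
Log2 ratio of knockdown over control (colour) for all 43 members in their order along the chromosome (rows) on the 7 arrays (columns); a dot marks a ratio that other probes also hold and grey marks no ratio. Strong colours stand in the DLD1 shRNA 51 column, in beta genes such as PCDHB2 and PCDHB5 and in PCDHGA3, PCDHGB2 and PCDHGB4, and in RKO with shRNA 51 for PCDHGC5 (4.89, shared).

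In the alpha cluster, PCDHA1, the first alternate gene, stood at 0.08 and 1.75 (DLD1), -0.25 and 1.28 (HT29) and 1.50 and 1.90 (RKO). It was above 0 on 5 of 6 arrays, with both RKO arrays high, and its mean was 1.04 ± 0.26 (SE, n = 6 arrays; limma adjusted p = 0.232). PCDHA5 stood at 0.08 and 1.80, -0.46 and 0.10, and 1.19 and 1.50 in DLD1, HT29 and RKO (mean 0.70 ± 0.31; limma adjusted p = 0.458). PCDHA11 stood at -0.40 and 2.07 in DLD1, -0.16 and 0.41 in HT29 and 1.30 in RKO with shRNA 49, with no ratio on the last array (mean 0.79 ± 0.39, n = 5; limma adjusted p = 0.52). For these 3 genes every HT29 value lay under those of RKO, a difference that passed no test. PCDHA8 lay between -0.26 and 0.13 on all 6 arrays, with its own ratio on 5 of them, and its mean was -0.05 ± 0.14, with an interval of -0.38 to 0.28. The windows printed for PCDHA1 and PCDHA8 both read TGTCGCT, and their promoters hold 4 CpG sites each. PCDHA9 stood at -0.36 in DLD1 and 0.48 in HT29 with shRNA 49, and at 1.12 and -1.22 in RKO, all shared ratios.

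In the beta cluster PCDHB5 stood at 0.85 and 4.07 in DLD1, 0.50 in HT29 with shRNA 49, and 2.06 and 3.78 in RKO, with no ratio in HT29 with shRNA 51. All 5 values were above 0 and the shRNA 51 arrays were the high ones. Its fitted mean was 2.51 ± 0.28 (SE, n = 5; interval 1.81 to 3.21), 5.68-fold, and passed the threshold (limma adjusted p = 0.045). The SE leaves out the difference between the shRNAs, which the fit takes as a term. The values of 0.85 and 0.50 were shared ratios, and the call was lost when any 1 of the 5 arrays was left out (adjusted p 0.054 to 0.175) and without the shRNA term (0.291). PCDHB5 was also at 1.08 on the UHRF1 array, with its own ratio there. Its RefSeq promoter (chr5:141134956-141135255, plus strand, GRCh38.p14) is printed because it belongs to the member that passed the test, with its 6 CpG sites in capitals.
PCDHB5 promoter: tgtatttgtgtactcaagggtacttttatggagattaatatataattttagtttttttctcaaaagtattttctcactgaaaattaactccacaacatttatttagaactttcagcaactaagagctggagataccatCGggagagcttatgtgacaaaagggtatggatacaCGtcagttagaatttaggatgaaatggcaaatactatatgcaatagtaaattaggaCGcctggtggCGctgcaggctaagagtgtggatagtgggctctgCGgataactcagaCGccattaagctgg

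PCDHB15, the last beta gene, stood at 1.05 and 3.24 (DLD1), -0.12 and 3.75 (HT29) and 1.59 and 2.69 (RKO). Values were above 0 on 5 of 6 arrays, and its mean of 2.03 ± 0.29 (4.10-fold, n = 6) missed the threshold (limma adjusted p = 0.0568). Without the RKO array with shRNA 51 it passed (0.0445), and 4 of its 6 ratios were shared. PCDHB2 stood highest in DLD1, at 1.14 and 3.97, beside 0.08 and 0.83 in HT29 and 0.07 and -0.08 in RKO (mean 1.00 ± 0.53, n = 6; limma adjusted p = 0.535). Its 2 probes were both high in DLD1, reading 1.40 and 0.88 for shRNA 49, then 4.45 and 3.50 for shRNA 51. PCDHB16 stood at 0.34 and 3.10 in DLD1, 0.42 in HT29 with shRNA 49, and -0.47 and 0.61 in RKO (mean 0.99 ± 0.40, n = 5; limma adjusted p = 0.435). PCDHB11, close behind these in mean (0.95), had 3.25 in DLD1 with shRNA 51 and its own ratio there.

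At the other end of the beta cluster, PCDHB1 lay at -0.29 and -2.26 (DLD1), -0.35 and 0.48 (HT29) and -0.56 and 0.79 (RKO), all shared ratios (mean -0.37 ± 0.43; limma adjusted p = 0.795), and the mean was 0.12 without the DLD1 array with shRNA 51. PCDHB1 was the lowest of all members in DLD1 with shRNA 51. Among the 14 beta promoters found, its promoter alone lacks TGGCGCT, and a link of this to its value was not tested. PCDHB14 lay between -0.66 and 0.65 (mean -0.08 ± 0.20, n = 5; limma adjusted p = 0.913). Of the remaining beta genes in DLD1 with shRNA 51, PCDHB4 (1.98), PCDHB7 (1.79), PCDHB8 (1.39), PCDHB12 (1.81), PCDHB13 (2.03) and PCDHB18P (2.71) stood past 2-fold, and PCDHB9 (0.92) and PCDHB10 (-0.30) did not. Probes of 1 gene did not always go together: in RKO with shRNA 51 those of PCDHB12 read 4.67 and -0.49. In DLD1 with shRNA 51 those of PCDHB13 read 2.94 and 1.12, and those of PCDHB9 read 1.78 and 0.06. Members of the family resemble each other in sequence, so RNA of a related gene may have reached a probe, and where in the gene each probe lies was not used here.

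**Figure D5:**
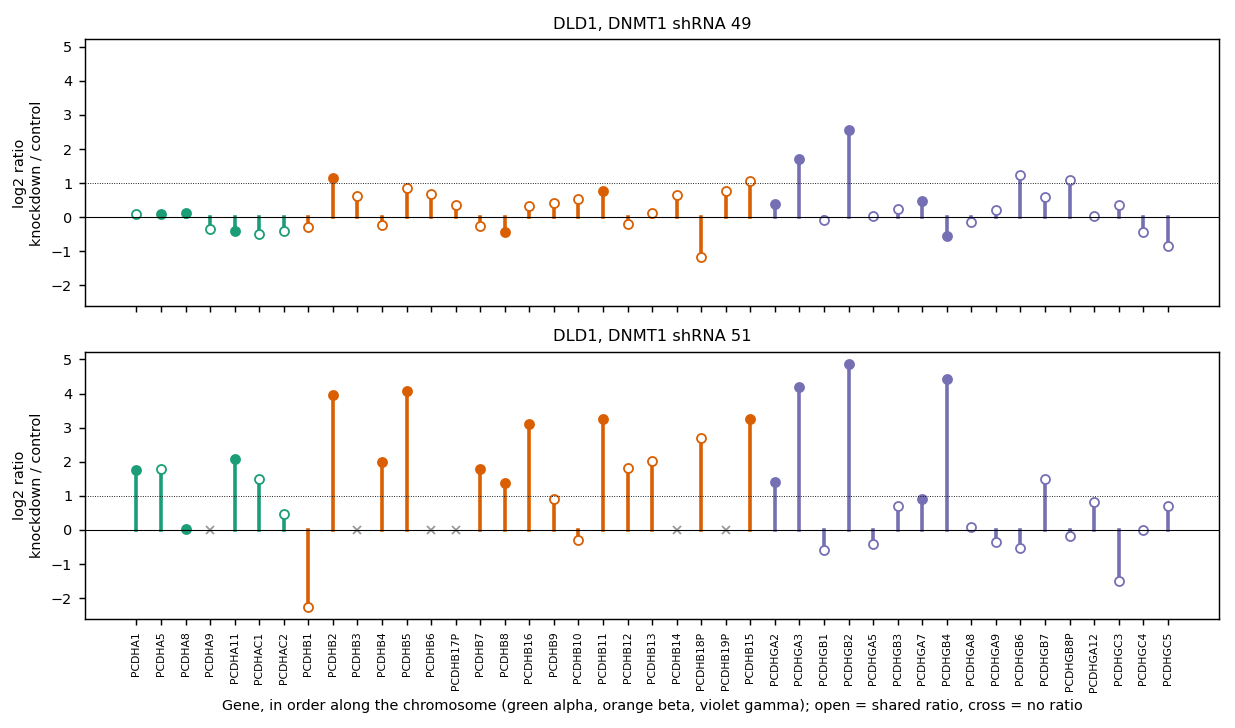
Log2 ratios of knockdown over control in DLD1 with shRNA 49 (top) and shRNA 51 (bottom), 1 stem per member in order along the chromosome; filled points are own ratios, open points are shared, crosses mark no ratio and the dotted line marks 2-fold. With shRNA 51 the high members (up to 4.86, PCDHGB2) lie beside members below 0 such as PCDHGB1 (-0.59) and PCDHGA5 (-0.42), both shared ratios.

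In the gamma cluster 3 alternate genes stood apart from the rest on the DLD1 array with shRNA 51. PCDHGA3, an A-subfamily gene, stood at 1.72 and 4.20 (DLD1), 0.62 and 2.98 (HT29) and 1.07 and 0.19 (RKO), above 0 on all 6 arrays and with its own ratio on each. Its mean was 1.80 ± 0.52 (3.48-fold, n = 6; limma adjusted p = 0.293), and without the RKO array with shRNA 51 it was 2.36 (adjusted p = 0.0242). PCDHGB2, a B-subfamily gene, reached 2.55 and 4.86 in DLD1, 28.9-fold on the second array, against -0.07 and 1.10 in HT29 and 0.78 and -0.97 in RKO, all its own ratios (mean 1.37 ± 0.76; limma adjusted p = 0.55). PCDHGB4 was high with shRNA 51 in DLD1 (4.43) and HT29 (2.75), and lay at -0.56 in DLD1 and -0.04 in HT29 with shRNA 49, and at 0.43 and -0.12 in RKO (mean 1.15 ± 0.60; limma adjusted p = 0.534). RKO was thus the line with the lowest mean for each of these 3 genes, though none of the differences between lines passed a test. The RefSeq promoter of PCDHGB2 (chr5:141359886-141360185, plus strand, GRCh38.p14), the member with the highest ratio in DLD1, is printed with its 10 CpG sites in capitals, and the core lies at -199 bases from its annotated start.
PCDHGB2 promoter: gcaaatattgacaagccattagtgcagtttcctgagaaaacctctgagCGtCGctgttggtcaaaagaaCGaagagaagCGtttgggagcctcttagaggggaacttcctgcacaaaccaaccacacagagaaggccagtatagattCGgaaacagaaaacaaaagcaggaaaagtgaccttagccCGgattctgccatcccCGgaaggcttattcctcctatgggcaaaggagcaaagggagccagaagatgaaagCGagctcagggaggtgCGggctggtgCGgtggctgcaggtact

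Other gamma genes lay lower in DLD1 with shRNA 51. PCDHGA2, just before PCDHGA3 among the measured members, stood at 0.40 and 1.41 in DLD1, past 2-fold on the second array. In HT29 it stood at -0.18 and 0.06 and in RKO at 0.59 and -0.10, all its own ratios (mean 0.36 ± 0.25, limma adjusted p = 0.638). PCDHGB1, between PCDHGA3 and PCDHGB2 among the measured members, lay at -0.08 and -0.59 (DLD1), -0.26 and -0.24 (HT29) and -0.14 and 0.62 (RKO), all shared ratios (mean -0.11 ± 0.20; limma adjusted p = 0.868). The windows of PCDHGB1 and PCDHGB4 hold the same form, CGCCGCT. PCDHGB8P, a pseudogene, lay at 1.10 and -0.19 in DLD1, 0.98 in HT29 with shRNA 49 and 0.09 and -3.28 in RKO. Its fitted mean was -0.49 ± 0.47 (n = 5; limma adjusted p = 0.75), and 0.22 without the last array. Among the 14 A- and B-subfamily members, 5 were past 2-fold in DLD1 with shRNA 51, the others with values down to -0.59. Those others all held shared ratios there except PCDHGA7. Of the 5 with their own ratio, 4 were past 2-fold, so high and low gamma genes there also differ in how many ratios are shared. Over the 32 members with both a core and a ratio on that array, 14 of 24 with a 7-base form and 4 of 8 without stood past 2-fold. By cluster the counts were 3 of 4 with a form and 1 of 2 without in alpha, and 9 of 11 and 0 of 1 in beta. In gamma they were 2 of 9 with a form (median -0.36) and 3 of 5 without (median 1.41). Of the 9 with a form, only PCDHGA3, PCDHGB4 and PCDHGA7 had their own ratio there. The 9 also take in the C-type gene PCDHGC3, whose form is TGGCGCT. Of the gamma members without a form, PCDHGA2 and PCDHGB2 read CGTCGCT, which differs from TGTCGCT only in its first base. The gamma split thus depends on which forms were searched, rests largely on shared ratios, and does not show that high gamma genes lack the element. Across members, CpG count and ratio had Spearman coefficients from -0.25 to 0.01 on the 7 arrays (25 to 34 members an array, which share the array), given as a description.

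The C-type genes, which neurons use more uniformly than the alternate genes, had no mean past 2-fold among the 3 tested, and their ratios on the DNMT1 arrays were all shared except that of PCDHGC5 in HT29 with shRNA 49. PCDHAC1 stood at -0.49 and 1.50 in DLD1, 0.27 in HT29 and -0.25 in RKO with shRNA 49. PCDHAC2 stood at -0.39 and 0.48, -0.30, and 0.22 and 1.16 (mean 0.33 ± 0.19, n = 5; limma adjusted p = 0.594). Their promoters are rich in CpG beside those of the alternate alpha genes, with 27 and 15 sites against 4 to 7 in the 4 alternate genes with TGTCGCT. PCDHGC3 stood at 0.36 and -1.50 in DLD1, -0.29 in HT29 and 0.48 in RKO, the last 2 with shRNA 49. PCDHGC4 stood at -0.43 and 0.01, -0.86 and -0.29, and -0.66 and 0.52 (mean -0.28 ± 0.17; limma adjusted p = 0.578). PCDHGC5 lay between -0.84 and 0.69 on 5 arrays and at 4.89 in RKO with shRNA 51, a shared ratio (mean 0.44 ± 0.71; limma adjusted p = 0.858), without which the mean was -0.36.

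Within each line, 0 members passed the threshold in DLD1, HT29 or RKO (limma, 2 arrays a line), where 0.0227%, 0.0170% and 0.0454% of all genes did, with smallest member adjusted p of 0.293, 0.51 and 0.201. At an unadjusted p below 0.05 stood 10, 3 and 7 of the 36 members, against 8.80%, 8.03% and 12.5% of all genes. Median member means were 0.73 in DLD1, 0.10 in HT29 and 0.09 in RKO, and by cluster the alpha median was highest in RKO (1.35) and the beta and gamma medians in DLD1 (0.80 and 0.44). Differences between lines were tested directly and 0 members passed. The F test over lines passed 0.00% of all genes, and 2 members against 6.34% of all genes were under an unadjusted p of 0.05. The pairwise tests passed 0.00% of all genes too. At an unadjusted p below 0.05 stood 2 members for DLD1 against HT29 (5.68% of all genes), 4 for DLD1 against RKO (6.83%) and 2 for HT29 against RKO (6.93%). The median differences of the members were 0.65, 0.51 and -0.16 in that order.

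Between the shRNAs, 29 of 36 members (80.6%) had a higher value for shRNA 51 than for shRNA 49, as did 57.3% of all genes, and the median difference was 0.65, against 0.10. In the test of this difference 0 members and 0.00% of all genes passed (limma, smallest member adjusted p = 0.392), and 6 members against 11.2% of all genes were under an unadjusted p of 0.05. PCDHB5 (2.47 ± 0.52), PCDHGB4 (2.41 ± 1.08), PCDHB15 (2.39 ± 0.58) and PCDHGC5 (2.37 ± 1.07) were highest in this difference, and PCDHGB8P lowest (-2.33 ± 0.64). With shRNA 49 alone the medians of means were 0.25, 0.18 and 0.20 for alpha, beta and gamma, and with shRNA 51 alone 1.14, 0.81 and 0.30, over the 42 and 26 members testable in each. DNMT1 itself was lower with shRNA 49 than with shRNA 51 in HT29 and RKO, and its part in the difference was not tested.

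On the UHRF1 array in HCT116, 6 of 38 members with a ratio stood at least 2-fold above control (4.62% of all genes) and 1 below (2.32%). With own ratios alone these were 2 of 5 (3.17%), PCDHGB1 at 2.76 and PCDHB5 at 1.08. The others above were PCDHB18P (1.46), PCDHB4 (1.32), PCDHB2 (1.16) and PCDHGA5 (1.03), and PCDHGB7 was below at -2.35, all of them shared ratios. PCDHGB1, the highest here, had a mean of -0.11 on the DNMT1 arrays, and the DLD1 genes PCDHGA3, PCDHGB2 and PCDHGB4 lay at -0.19, -0.05 and 0.14. Cluster medians were -0.01, 0.40 and 0.14 for alpha, beta and gamma. This is 1 array in another line, so no test of a difference from DNMT1 knockdown was made.

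Genes around and related to the clusters were set beside them as lists. Of the protocadherins outside the clusters, 10 were tested and 0 passed, with a median mean of 0.25. PCDH10, a gene often methylated in colorectal cancer, had the highest mean (0.73, limma adjusted p = 0.469). PCDH12 (0.66) and PCDH7 (0.40) followed, and PCDH15 (-0.95) and PCDH17 (-0.91) were lowest. PCDH7, PCDH10, PCDH15 and PCDH17 held shared ratios on all 6 DNMT1 arrays, and PCDH12 on 4 of the 5 where it had a ratio. The medians of this list thus rest largely on shared ratios. Array medians of this list ran from -0.87 in HT29 with shRNA 51 to 1.98 in RKO with shRNA 51. On that RKO array the median of the clustered members was -0.01. The 12 other genes in the same stretch of chromosome, from WDR55 to ARAP3, had a median of -0.08, and 0 passed (smallest adjusted p = 0.538). DND1 (0.52), TAF7 (0.37) and ARAP3 (0.27) were highest, and HARS2 (-0.32) and ZMAT2 (-0.17) lowest. In DLD1 with shRNA 51, where the member median was 1.41, the median of these neighbours was -0.19. The 2 sets differ in their ratios: 51.2% of member probe ratios on that array were shared. No neighbour had more than 1 shared ratio over the DNMT1 arrays.

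Among 20 factors known for the architecture or silencing of the clusters, DNMT1 fell (-2.13 ± 0.27, n = 6; limma adjusted p = 0.0441), the value that set the direction, and 0 rose, with a median of 0.04. ZNF274, a zinc-finger repressor, had the highest mean, at 0.11 and 0.14 (DLD1), 0.83 and 1.43 (HT29) and 1.60 and 2.84 (RKO) (mean 1.16 ± 0.37; limma adjusted p = 0.326). DNMT3B, a methyltransferase that sets methylation at these promoters in mouse neurons, had a mean of 0.73 with 1.56 and 1.77 in DLD1, and DNMT3A one of 0.31. STAG2, a cohesin subunit, lay at -0.31. CTCF, named here for its role and not for its value, had a mean of 0.00 ± 0.18.

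Markers of other cell types were counted on the same arrays. Of 14 neuronal markers 12 were tested, 0 passed and 4 had a mean above 0, with a median of -0.16 and array medians from -0.34 to 0.43, the highest in DLD1 with shRNA 51. SYT1 (1.71; limma adjusted p = 0.06), MAP2 (0.47) and STMN2 (0.14) were highest, and SNAP25 (-1.25) and NEFL (-0.27) lowest. On the DNMT1 arrays SYT1, STMN2, SNAP25 and NEFL held only shared ratios, and MAP2 held them on 5 of 6. Of 12 fibroblast and endothelial markers 11 were tested and 0 passed (median 0.12), with LUM (1.68), PECAM1 (1.32) and VWF (0.79) highest and COL3A1 (-0.20) and CDH5 (-0.10) lowest. Of 10 colorectal epithelial markers 0 passed (median 0.30), and their array median was also highest in DLD1 with shRNA 51, at 1.29. EPCAM (1.19), KRT19 (0.94) and CEACAM5 (0.73) had the highest means, and KRT20 (-0.64) and CDX2 (-0.44) the lowest. The part of these markers in the members' values was not tested.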

How the data were processed

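RNA of 4 colorectal cancer cell lines was read on 7 arrays of 2 colours. The deposited values are log ratios per probe, 41000 probes an array, taken as log2 from their range. Per the submitters' processing notes limma was used, version not given. How background was handled, how ratios were normalized, their log base and their direction are likewise not given in the sources used here, whereas dyes are in the labels. The number of arrays limits the precision. No column of another series was present (0 columns).

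Probes were named through the platform annotation: 29341 had 1 symbol, 33 several and 11626 none. Ratios of a symbol's probes were averaged into 18646 genes, of which 99.8% matched RefSeq (GRCh38.p14) by Entrez identifier. RefSeq gave names, gene order and promoters. The arrays' own build is not stated there.

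limma 3.58.1 in R 4.3.3 tested the mean over the 6 DNMT1 arrays against 0 for 17623 genes with at least 5 values, with shRNA as a covariate and line as a random block (duplicateCorrelation 0.165). A second fit with 1 coefficient per line plus shRNA gave each line, the F test, pairwise differences and shRNA 51 minus shRNA 49. Two-sided p-values were adjusted over all tested genes with the Benjamini-Hochberg method, threshold 0.05. Should both arrays of a line have used the same control RNA, tests against 0 leave out its spread. The UHRF1 array has no test. Only the fit of the mean over all DNMT1 arrays was checked on simulated data. Those data had independent values, none missing, no shRNA difference and the same shift on every array.

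Members, lists and tests were chosen with earlier results of these data known. Values are given for members past a threshold, the 4 highest and 2 lowest means of each cluster, C-type genes, and members past 2-fold on the UHRF1 array (up to 3 each way per cluster). Others named, such as PCDHB11 and those set out for DLD1 with shRNA 51, were added after their values were seen. In each list the 3 highest and 2 lowest are named. Alternatives left out the shRNA covariate, averaged arrays per line, normalized by quantiles, centred again, took the median of probes or single probes, required all 6 arrays, set shared ratios missing, used 1 shRNA, or left out 1 array.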

Additional observations from a re-analysis of the deposited data

How the results depend on the processing

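The count of members that rose over all DNMT1 arrays, 1, was 0 without the shRNA covariate, with arrays averaged per line and with quantile normalization. It was also 0 with shRNA 49 alone. With all 6 arrays required (26 members left), shared ratios set to missing (13 left) or shRNA 51 alone it was 0 too. PCDHB5 lacked the values to enter these last fits, so they could not repeat its call. When 1 array was left out the count was 0 to 2. It was 1 with arrays centred again, with the median of probes and with single probes. The count that fell was 0 under all 16 alternatives, and within DLD1, HT29 and RKO both counts were 0 under the 9 alternatives run. With shared ratios set to missing, the alpha median moved from 0.70 to 0.26 (2 members), the beta median from 0.35 to 0.98 (5) and the gamma median from 0.16 to 0.76 (6). That fit keeps only members with enough own ratios, so these medians are of other sets of members. Single means moved less: PCDHGA3 and PCDHGB2 stayed at 1.80 and 1.37, and PCDHGB4 went from 1.15 to 1.16. PCDHB2 went from 1.00 to 1.09 and PCDHA5 from 0.70 to 0.53. Under the same setting, members above 2-fold on the UHRF1 array went from 6 to 2 and those below from 1 to 0. When 1 array was left out, medians ran from 0.42 to 0.84 (alpha), 0.18 to 0.52 (beta) and -0.02 to 0.26 (gamma).

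Of the single members' means under alternatives, 288 of 299 kept their side of the threshold. The sign changed in 21 of them, for 11 members, none past the threshold there or in the reported test. PCDHGC5 went from 0.44 to -0.74, PCDHGB8P from -0.49 to 0.72, PCDHB18P from 0.34 to -0.54, PCDHAC2 from 0.33 to -0.15 and PCDHGB4 from 1.15 to -0.06 with shRNA 49 alone, and PCDHB1 from -0.37 to 0.12 without the DLD1 array with shRNA 51. PCDHB5 stayed above 0 under its 12 alternatives (1.14 to 2.69) and passed in 3. PCDHB15 and PCDHGA3 each passed in 1, without the RKO array with shRNA 51. Apart from lost values and smaller samples, the cause of these shifts was not tested. The reported fits already match arrays on shRNA number, as a covariate, and on line. Signal over background was not used here, so dim probes could not be told from bright ones.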
